A study of Mus musculus with 4 samples.

Results

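The 9 genes described here mark the formative and primed states of pluripotency, and their RNA was followed in mouse embryonic stem cells (ESCs) with and without the chromatin remodeler SNF2L. The genes were chosen by name as markers of these states, with earlier results of these data known. They were Fgf5, Otx2, Pou3f1, Zic2, Zic5, Foxd3, Grhl2, Sox11 and Sall2, and all 9 were found among the 24594 genes of the count table. RNA-seq of mRNA had been run on 4 libraries of untreated 129S6/SvEvTac ESCs, 2 labelled WT and 2 labelled Snf2l KO, in 1 batch. The ESCs had been kept in serum with LIF on gelatin, and the KO cells were 1 Cas9-edited clone, so that genotype and clone cannot be told apart. SNF2L, encoded by Smarca1, is 1 of the ISWI ATPases that slide nucleosomes.

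Naive pluripotency is the state of the pre-implantation epiblast and is what LIF helps to maintain in culture. On the way to lineage commitment the cells pass through a formative state, in which transcription factors such as OTX2, POU3F1 (OCT6) and FOXD3 help to activate a new set of enhancers, and then reach the primed state of the post-implantation epiblast, for which the ligand FGF5 is a classical marker. In serum and LIF, ESC cultures are mixed, and some cells already express part of this program.

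The libraries held 13771642 to 15608803 gene counts, and 13840 genes passed the filter on low counts, all 9 members among them. The label check held: Smarca1 was counted 620 and 626 times in WT and 37 and 31 times in KO (log2 fold change -4.30, SE 0.159, edgeR adjusted p = 2.65e-10). The defining ESC markers were present at high level in both genotypes. Pou5f1 was at 1262 ± 105 CPM (SD, n = 2; counts scaled to a library of 1000000) in WT and 1319 ± 62.8 in KO (log2 fold change 0.06, edgeR adjusted p = 0.727), and Sox2 and Nanog had log2 fold changes of -0.04 and 0.00 (edgeR adjusted p = 0.813 and 0.998). Chromosome 8 stood apart, with 453 of its 754 tested genes called lower in KO and a median log2 fold change of -0.51, as did chromosome Y, with all 6 tested genes called lower and a median of -4.57. No member lies on either, and genes named from other lists that lie on chromosome 8 are given as such.

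Of the 9 members, 5 passed edgeR's quasi-likelihood test at an adjusted p under 0.05, and they moved in opposite directions. Pou3f1, Foxd3 and Grhl2 rose in KO, to 1.66, 1.39 and 1.32 times WT, while Zic2 and Zic5 fell to 52.9% and 61.7% of WT. Otx2, Sox11, Sall2 and Fgf5 did not pass. Of all tested genes, 9.21% passed in either direction, 4.0% as higher and 5.21% as lower, beside 3 members higher and 2 lower. Of these 1274 calls, 460 were on chromosome 8 (7 higher, 453 lower) and 6 on chromosome Y, all lower. No member lies on either chromosome. The members were chosen with earlier results of these data known, so these shares do not test them as a set. None of the 9 met the stricter rule for a differentially expressed gene (DEG, adjusted p under 0.01 and a change over 2-fold), with edgeR or with DESeq2, which 0.990% of all tested genes met with edgeR. At an unadjusted edgeR p under 0.05 there were 6 members, the 5 named above and Sall2. The share of all tested genes at that threshold was not computed. The KO and WT libraries did not overlap for 7 of the 9, which held for 50.5% of all tested genes. The median log2 fold change of the members was 0.05, and that of all tested genes was 0.00.

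**Figure D1:**
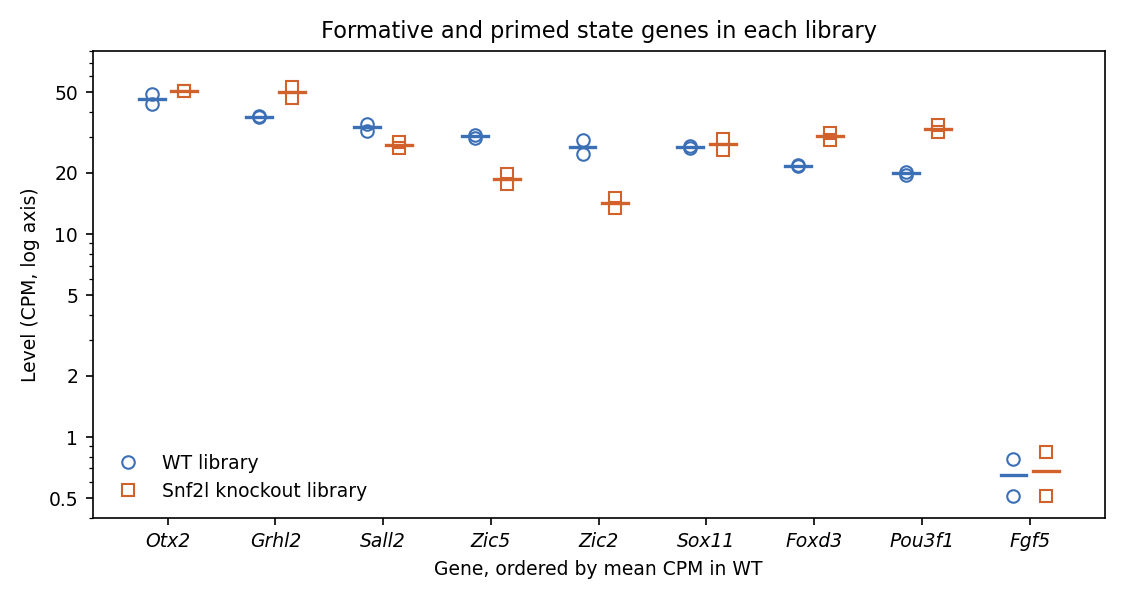
CPM on a log axis for each of the 9 genes, ordered by mean WT level, with 1 open symbol per library and the 2 genotypes side by side. Pou3f1 is at 19.5 and 20.3 CPM in the WT libraries and 31.8 and 34.4 in the KO libraries, and Zic2 is at 24.8 and 29.0 against 13.4 and 15.1, while Fgf5 stays under 1 CPM in all 4.

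Pou3f1, a POU-domain factor of the formative epiblast, had the largest rise among the members. It was counted 266 and 311 times in the WT libraries and 499 and 528 times in the KO libraries, or 19.5 and 20.3 CPM against 31.8 and 34.4 CPM. Both KO libraries lay above both WT libraries, and each of the 4 KO to WT pairs differed by 0.65 to 0.81 on the log2 scale, beside a largest gap between replicates of 0.111. The log2 fold change was 0.73 (SE 0.113, 95% interval 0.49 to 0.97, edgeR adjusted p = 8.21e-04). Pou3f1 lies on mouse chromosome 4 (GRCm38, 124657646 to 124660655), and 330 bases of its exons (8.6%) are overlapped on the opposite strand by an annotated antisense gene, Gm2164, which had no row of its own. Whether counting used strand was not given in the sources used here, so reads of these 2 genes cannot be told apart.

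Foxd3, a forkhead factor that acts at enhancers during the naive to primed transition and in early neural crest, rose less. Its values were 21.6 and 21.9 CPM in WT and 29.2 and 31.3 CPM in KO, with no overlap. The log2 fold change was 0.47 (SE 0.112, 95% interval 0.24 to 0.71, edgeR adjusted p = 0.014). The call was lost without WT replicate 1 (edgeR adjusted p = 0.0942), without WT replicate 2 (0.0750) and with DESeq2 (0.0579), with the log2 fold change between 0.42 and 0.53 in all alternatives.

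Grhl2, a grainyhead-like factor that opens epithelial enhancers in the formative epiblast, was at 37.8 and 38.1 CPM in WT and 53.1 and 46.7 CPM in KO. The KO libraries lay above the WT libraries but were further from each other than the WT libraries were. The log2 fold change was 0.40 (SE 0.105, 95% interval 0.17 to 0.62, edgeR adjusted p = 0.0277). An antisense gene, Gm16136, overlaps 169 exon bases of Grhl2 and had 6 and 12 counts in WT and 12 and 22 in KO. The Grhl2 call was the weakest of the 5: it was lost without WT replicate 1 (edgeR adjusted p = 0.171), WT replicate 2 (0.142) or KO replicate 1 (0.0901), with DESeq2 (0.0781), with a filter of at least 1 count (0.0559) and once chromosome medians were removed (0.0729), with the log2 fold change between 0.30 and 0.49 in all alternatives.

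Zic2, a zinc-finger factor that binds enhancers in ESCs and the early neural plate, fell most. Its counts were 338 and 444 in WT and 210 and 232 in KO, or 24.8 and 29.0 CPM against 13.4 and 15.1 CPM. The genotypes did not overlap, and the 4 KO to WT pairs differed by -1.11 to -0.72 on the log2 scale, beside a largest replicate gap of 0.222. The log2 fold change was -0.92 (SE 0.129, 95% interval -1.20 to -0.64, edgeR adjusted p = 4.30e-04). It reached -1.02 without WT replicate 1 and -1.01 without KO replicate 2, where Zic2 met the DEG rule.

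Zic5, its neighbour and family member, was at 29.9 and 30.7 CPM in WT and 19.7 and 17.6 CPM in KO, again with no overlap. The log2 fold change was -0.70 (SE 0.116, 95% interval -0.95 to -0.45, edgeR adjusted p = 0.00134). Of the 4840 words of 50 bases in its transcripts, 362 (7.48%) also occur in transcripts of other genes, nearly all in the pseudogene Gm12241, while Zic2 shared none. The calls of Pou3f1, Zic2 and Zic5 held in all alternatives, with largest adjusted p-values of 0.00306, 0.00196 and 0.00555.

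**Figure D2:**
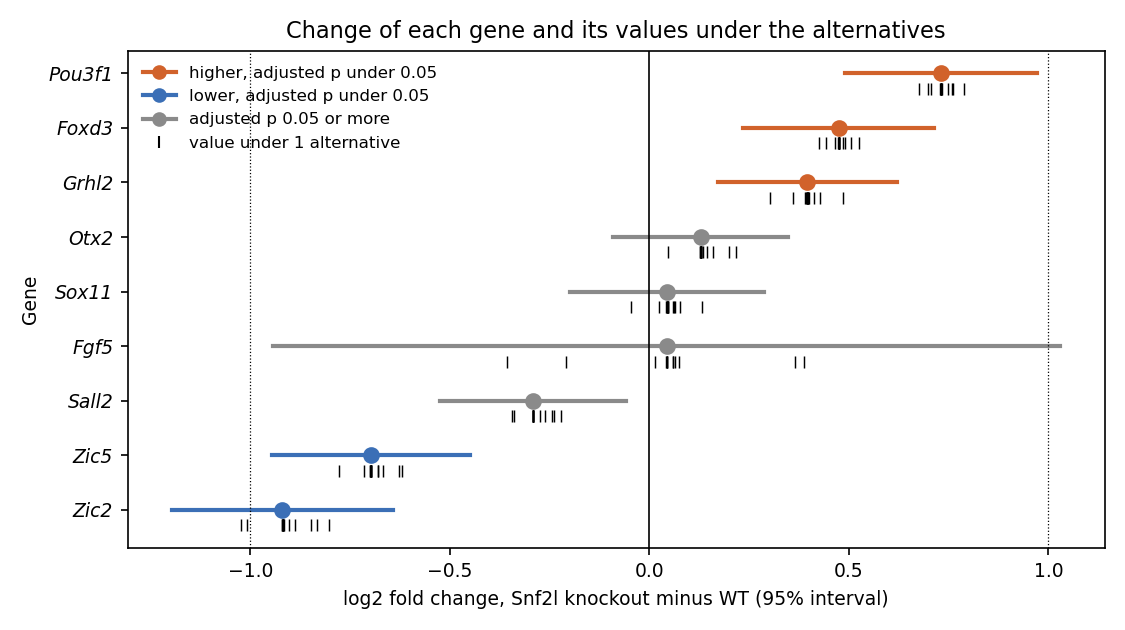
Log2 fold change of each gene, KO minus WT, as a dot with its 95% interval from edgeR, and a tick under it for the value in each alternative. The intervals of Pou3f1, Foxd3 and Grhl2 lie above 0 and those of Zic2, Zic5 and Sall2 below it, Sall2 with an adjusted p of 0.122. Fgf5 has an interval from -0.94 to 1.03, and the dotted lines mark 2-fold changes.

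The remaining 4 members did not pass. Otx2, a homeodomain factor that drives exit from the naive state, was at 43.6 and 49.1 CPM in WT and 50.9 and 50.6 CPM in KO. The KO libraries lay above, but the replicate gap of 0.174 on the log2 scale exceeded the log2 fold change of 0.13 (SE 0.103, 95% interval -0.09 to 0.35, edgeR adjusted p = 0.516). The interval excludes a rise as large as that fitted for Pou3f1.

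Sall2, a spalt-family zinc-finger factor, was at 34.8 and 32.4 CPM in WT and 28.3 and 26.5 CPM in KO, without overlap. Its log2 fold change was -0.29 (SE 0.109, 95% interval -0.53 to -0.06), with an unadjusted p of 0.0178 in the edgeR fit and an adjusted p of 0.122. Sox11, a SoxC factor of neural and epiblast cells, was at 27.2 and 26.5 CPM in WT and 29.4 and 26.0 CPM in KO. Its genotypes overlapped, and the log2 fold change was 0.05 (95% interval -0.20 to 0.29, edgeR adjusted p = 0.866).

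Fgf5, the secreted marker of the primed epiblast, was barely present, with 7 and 12 counts in WT and 8 and 13 in KO. The log2 fold change of 0.04 had an interval from -0.94 to 1.03 (edgeR adjusted p = 0.975), so that changes of nearly 2-fold in either direction were not excluded at this depth. Fgf5 and Sox11 also changed sign when single libraries were left out.

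Between genes, levels were compared as CPM per kb of the gene length given in the count table. For Grhl2 that length is 5506 bp, beside 8613 exon bases in GENCODE, so its level per kb depends on the annotation used. The other members have the same length in both. In WT, Otx2 was highest at 10.98 ± 0.932 CPM per kb (SD, n = 2), followed by Foxd3 at 9.36 ± 0.0986 and Zic2 at 9.34 ± 1.02, whose libraries overlapped, and Grhl2 at 6.89 ± 0.0441. Zic5 and Sall2 overlapped at 6.19 ± 0.111 and 6.18 ± 0.311, and Pou3f1 at 5.17 ± 0.138 and Sox11 at 3.23 ± 0.0589 came next. Fgf5, at 0.259 ± 0.0760 CPM per kb, stood at percentile 5.81 of all tested genes, and the other 8 between percentiles 37.9 and 64.5.

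In KO the order differed. Foxd3 was highest at 13.0 ± 0.641 CPM per kb, above Otx2 at 12.01 ± 0.0505. Grhl2 at 9.06 ± 0.818 and Pou3f1 at 8.60 ± 0.469 followed and overlapped. Zic2 stood at 4.95 ± 0.420, overlapping Sall2 at 5.04 ± 0.236, and Zic5 at 3.82 ± 0.298, with Sox11 at 3.33 ± 0.291 and Fgf5 at 0.271 ± 0.0950 last.

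The summed level of the 9 genes hardly moved while its composition did. The sum was 239.6 and 248.7 CPM in the WT libraries and 256.2 and 249.0 CPM in the KO libraries. Pou3f1 made up 8.15% and 8.16% of it in WT and 12.4% and 13.8% in KO, and Zic2 made up 10.4% and 11.6% in WT and 5.22% and 6.06% in KO. Ratios of counts within a library, which no scaling between libraries can alter, gave the same contrast: Pou3f1 to Zic2 was 0.787 and 0.700 in WT and 2.38 and 2.28 in KO, and Grhl2 to Zic5 was 1.26 and 1.24 in WT and 2.70 and 2.65 in KO. The Zic2 to Zic5 ratio was 0.830 and 0.945 in WT and 0.680 and 0.856 in KO, with overlap. In bulk RNA, fewer cells that express a gene and less RNA per cell cannot be told apart.

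Zic5 and Zic2 are divergent neighbours on chromosome 14, with Zic5 on the minus strand (GRCm38, 122459160 to 122465658) and Zic2 on the plus strand (122475384 to 122480328), and their starts in RefSeq lie 9.73 kb apart. Chromosome 14 also holds Otx2 (48656781 to 48667644) and Sall2 (52311177 to 52328670). Its 453 tested genes had a median log2 fold change of -0.07, with 9 higher and 18 lower at an adjusted p under 0.05. Within 2 Mb of the Zic pair, the 16 other tested genes had a median of -0.15 and a range of -1.13 to 0.29, and none passed with edgeR or DESeq2 (3 at an unadjusted edgeR p under 0.05). With chromosome medians removed, Zic2 and Zic5 had log2 fold changes of -0.85 and -0.63 (edgeR adjusted p = 0.00136 and 0.00555). The long noncoding RNA 2610035F20Rik, named after its values were seen because it lies between the pair, had 20 and 33 counts in WT and 15 and 17 in KO (log2 fold change -0.82, SE 0.331, edgeR adjusted p = 0.153). Among the 10 tested genes nearest to each of the other members that changed (5 on each side), none passed around Pou3f1 or Grhl2 with edgeR or DESeq2 (2 each at an unadjusted edgeR p under 0.05). Around Foxd3, 3 passed, with Pgm1 and Ror1 higher and Kank4os lower in KO. Beside these counts and that near the Zic pair, 9.21% of all tested genes passed with edgeR. With so few neighbours, the absence of calls does not show that a change was local.

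**Figure D3:**
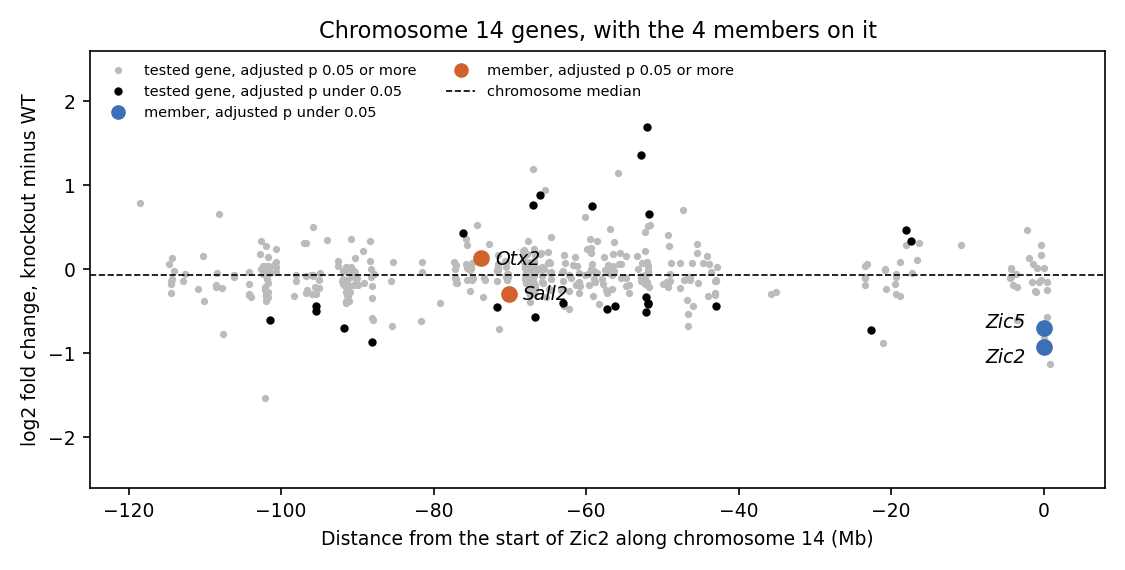
Log2 fold change, KO minus WT, of the tested genes of chromosome 14 against the distance of their starts from that of Zic2 in Mb, with genes at an adjusted p under 0.05 in black and the 4 members enlarged. Zic2 and Zic5 lie at -0.92 and -0.70, below the dashed chromosome median of -0.07, and genes near them lie between -1.13 and 0.29.

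Among the members that changed, Foxd3 and Zic5 have a promoter in the RefSeq table (GRCm38.p6), and the 250 bases before their starts are shown because the 2 genes moved in opposite directions. Capitals mark CpG dinucleotides, which are frequent in the promoters of developmental regulators. The windows are chr4:99656049-99656298 on the plus strand and chr14:122465659-122465908 on the minus strand, both read 5′ to 3′.
Foxd3: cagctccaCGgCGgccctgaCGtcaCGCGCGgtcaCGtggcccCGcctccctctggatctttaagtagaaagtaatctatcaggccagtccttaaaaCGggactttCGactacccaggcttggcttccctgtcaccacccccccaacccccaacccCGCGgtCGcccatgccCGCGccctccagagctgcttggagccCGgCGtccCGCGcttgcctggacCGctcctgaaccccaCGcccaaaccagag
Zic5: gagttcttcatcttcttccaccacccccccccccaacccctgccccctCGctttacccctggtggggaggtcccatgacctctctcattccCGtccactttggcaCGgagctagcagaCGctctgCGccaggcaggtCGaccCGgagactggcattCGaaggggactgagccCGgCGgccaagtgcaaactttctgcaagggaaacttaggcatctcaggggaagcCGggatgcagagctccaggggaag
The Foxd3 window holds 21 CpG and the Zic5 window 11, at percentiles 83.7 and 64.4 of the 32851 promoters in the table, whose median is 6. Searched on both strands, neither window holds TATAAA (12.4% of all promoters), CCAAT (33.8%), GGGCGG (32.7%), ATGCAAAT (1.6%), TAATCC (6.25%) or AACCGG (5.62%). Fgf5, Otx2, Sox11 and Sall2 also have an entry, and Pou3f1, Zic2 and Grhl2 have none.

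By the distance between centred log2 CPM profiles over the 4 libraries, among 12591 genes, the profiles most like that of Zic2 were those of Tmem266 (distance 0.10), Dppa3 (0.11) and Synpo2 (0.13), with log2 fold changes of -1.05, -0.88 and -0.85. Zic5 came 155th, at a distance of 0.34.

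Of 20 paralogs of the members, 10 were tested, and the others had at most 5 counts in any library. Zic1 had 1 to 5 counts and was not tested. Pou3f3, the only other class III POU gene that was tested, had 2 to 14 counts. Grhl1 and Grhl3 had log2 fold changes of -0.17 and -0.05 (edgeR adjusted p = 0.529 and 0.843). The 2 paralogs that passed (20% of those tested, beside 9.21% of all tested genes) were Sox12 and Sall1. Sox12, a SoxC relative of Sox11, rose by 0.39 (SE 0.0923, edgeR adjusted p = 0.0144), a call that was lost without WT replicate 1 (0.211) or WT replicate 2 (0.0769) at log2 fold changes of 0.35 and 0.43, and Sall1, which is on chromosome 8, fell by 0.55 (SE 0.0979, edgeR adjusted p = 0.00201). With chromosome medians removed, Sall1 had a log2 fold change of -0.05 (edgeR adjusted p = 0.846). Sall4, the highest paralog in mean CPM over the 4 libraries, had one of 0.05 (edgeR adjusted p = 0.779).

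A list of 28 other genes of the formative and primed states also held calls in both directions. Like the members, it was chosen with earlier results of these data known. Of 25 tested, 4 were higher and 4 lower in KO at an adjusted p under 0.05 (32.0%, beside 9.21% of all tested genes), with a median log2 fold change of 0.21. Called or not, the log2 fold change was above 0 for 17 of the 25 and below 0 for 8, beside 50.1% of all tested genes above 0. Lef1, which carries WNT signals to DNA, had the largest change: 65 and 82 counts in WT and 323 and 294 in KO, a difference of 1.97 on the log2 scale (SE 0.149, edgeR adjusted p = 1.86e-06). It was a DEG, as was Lefty2, a secreted inhibitor of NODAL, at 27.0 and 29.0 CPM in WT and 11.6 and 14.3 CPM in KO (log2 fold change -1.12, SE 0.131, edgeR adjusted p = 1.18e-04).

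Lefty1, the other NODAL inhibitor, fell by 0.67 on the log2 scale (SE 0.122, edgeR adjusted p = 0.00259), and Fgf15, a secreted FGF, fell by 0.67 (SE 0.135, edgeR adjusted p = 0.00533). Sox3, a neural and epiblast SOX factor, rose by 0.90 from 2.28 CPM (SE 0.229, edgeR adjusted p = 0.0219). The Sox3 call was lost without WT replicate 1, WT replicate 2 or KO replicate 2 (edgeR adjusted p = 0.062, 0.070 and 0.118) and with DESeq2 (0.237), with the log2 fold change between 0.72 and 1.06. The other 3 calls, with the next genes named after their values were seen, were Sfrp2, a WNT modulator (0.65), the de novo DNA methyltransferase Dnmt3a (0.55) and the let-7 regulator Lin28b (-0.54). Nodal itself had a log2 fold change of 0.28 (edgeR adjusted p = 0.141), Dnmt3b one of 0.04 (0.853) and Lin28a, the highest of the list in mean CPM over the 4 libraries, one of 0.01 (0.973). The count of 8 depended on single libraries: it was 5 without WT replicate 1 and 14 without KO replicate 1.

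**Figure D4:**
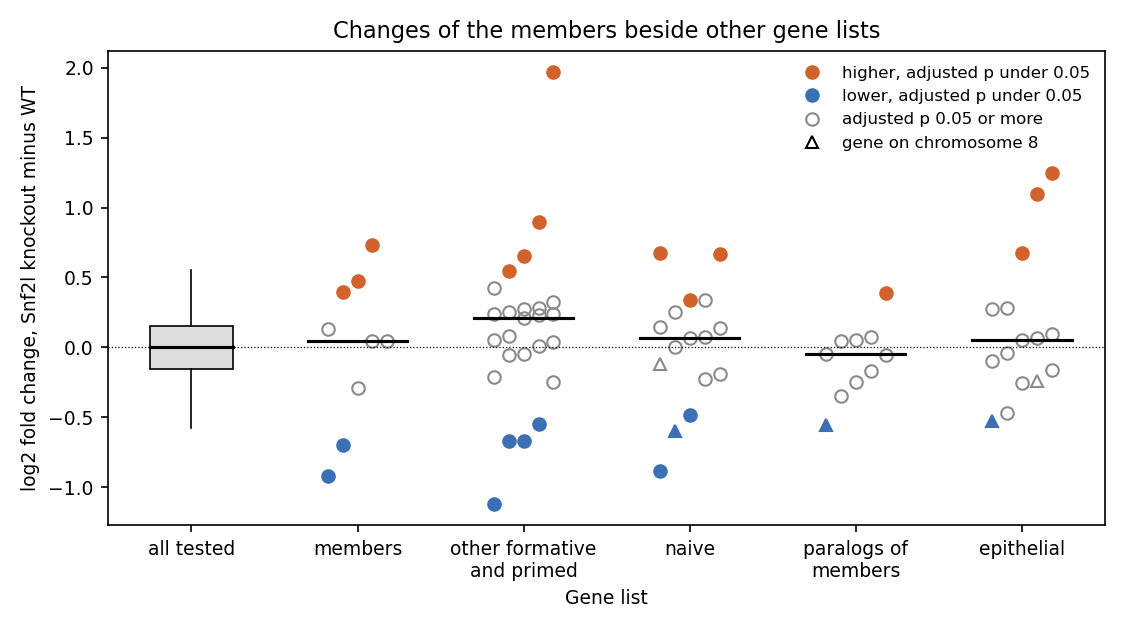
Log2 fold change, KO minus WT, for each tested gene of the members and of 4 other lists (filled where the adjusted p was under 0.05, triangles for chromosome 8), with the median as a bar. The box for all tested genes spans the quartiles, with whiskers from the 5th to the 95th percentile. The members have 3 filled points above 0 and 2 below, and the other formative and primed genes 4 and 4, with Lef1 at 1.97 and Lefty2 at -1.12.

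Calls among the naive-state genes went in both directions too. Of 16 tested, 3 were higher and 3 lower (37.5%, beside 9.21% of all tested genes), with a median log2 fold change of 0.07. Gbx2 and Tbx3, factors that help to sustain self-renewal, each rose by 0.67 (SE 0.0904 and 0.103, edgeR adjusted p = 2.96e-04 and 8.18e-04), and Klf4, outside the rule for named genes, rose by 0.34 (edgeR adjusted p = 0.0359). Dppa3 fell by 0.88 (SE 0.148, edgeR adjusted p = 0.00143), Tcl1 fell by 0.48 (SE 0.111, edgeR adjusted p = 0.0121, and 0.058 without WT replicate 1), and Zfp42, on chromosome 8, fell by 0.60 (SE 0.0829, edgeR adjusted p = 3.80e-04). With chromosome medians removed, Zfp42 had a log2 fold change of -0.09 (edgeR adjusted p = 0.615). Esrrb, the highest of the list in mean CPM over the 4 libraries, had one of 0.14 (edgeR adjusted p = 0.364).

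Because GRHL2 acts on epithelial genes, 15 of these were followed beside it, and all were tested. Of the 15, 3 were higher in KO and 1 was lower (26.7%, beside 9.21% of all tested genes), with a median log2 fold change of 0.05. Krt18 and Krt8, which encode the keratin pair of simple epithelia, rose by 1.25 and 1.10 (SE 0.117 and 0.121, edgeR adjusted p = 1.81e-05 and 7.37e-05), and both were DEGs. Spint1, a membrane protease inhibitor, rose by 0.68 (SE 0.100, edgeR adjusted p = 6.43e-04). Cdh1 (E-cadherin), on chromosome 8, fell by 0.53 (SE 0.0825, edgeR adjusted p = 8.43e-04), and with chromosome medians removed it had a log2 fold change of -0.02 (edgeR adjusted p = 0.921). Epcam and Esrp1, named after their values were seen, had log2 fold changes of 0.06 and -0.04 (edgeR adjusted p = 0.749 and 0.869).

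Markers of other cell types moved with genotype, and their part in the changes of the members was not tested. These lists were also chosen with earlier results of these data known. Beside the counts that follow, 9.21% of all tested genes passed, 4.0% as higher and 5.21% as lower. Of 12 neural progenitor genes, 6 were tested and 4 were lower, none higher, with a summed level of 230.4 and 249.5 CPM in WT and 154.0 and 154.5 CPM in KO, and 5 of the 12 had at most 3 counts in every library, Dcx with 0 in all. Most of this sum was Tubb3, on chromosome 8, named after its values were seen, at 135.5 and 157.8 CPM in WT and 92.7 and 99.8 CPM in KO. Sox1, also called lower, is on chromosome 8 too. Off chromosome 8, 2 of 4 were lower, with sums of 86.9 and 83.4 CPM in WT and 55.4 and 49.8 CPM in KO. Pax6 fell most among those called, by 1.18 (SE 0.134, edgeR adjusted p = 8.79e-05), alongside Zic2 and Zic5. Of 10 neural crest genes, 6 were tested, with 1 higher (Ets1, 1.15, SE 0.259, edgeR adjusted p = 0.0105) and 1 lower. Ets1 was at 0.85 without WT replicate 1 (edgeR adjusted p = 0.0651) and had an adjusted p of 0.0781 with DESeq2. The neural crest list had sums of 48.4 and 54.2 CPM in WT and 45.5 and 42.0 CPM in KO.

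Of 10 primitive endoderm genes, 9 were tested and 5 were higher, with Pdgfra at 1.33 (SE 0.256, edgeR adjusted p = 0.00373) and sums of 410.5 and 405.6 CPM in WT and 513.6 and 463.0 CPM in KO. Of 10 mesoderm genes, 4 were tested and 2 were higher, with Kdr at 1.53 (SE 0.291, edgeR adjusted p = 0.00343) and sums of 7.20 and 6.92 CPM in WT and 11.3 and 9.83 CPM in KO. Of 8 trophoblast genes, 6 were tested and 2 were higher, with Hand1, which is also 1 of the 2 mesoderm calls, at 1.23 (SE 0.283, edgeR adjusted p = 0.0121, and 0.095 without WT replicate 2 and 0.178 with DESeq2) and sums of 63.3 and 72.9 CPM in WT and 77.1 and 75.2 CPM in KO. Of 10 fibroblast and feeder genes, 8 were tested and 3 were higher. The list had sums of 106.6 and 102.4 CPM in WT and 162.4 and 170.7 CPM in KO. Most of these sums was Vim, named after its values were seen, at 86.17 and 86.25 CPM in WT and 130.7 and 140 CPM in KO. Fbn1, also named afterwards, was the only tested gene of the list with a negative log2 fold change, -0.63 (edgeR adjusted p = 0.156). Col3a1 had 4 and 8 counts in WT and 29 and 42 in KO (log2 fold change 2.44, SE 0.407, edgeR adjusted p = 0.00137), while Lum, a defining fibroblast gene, had 0 counts in all 4 libraries.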

How the data were processed

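The deposited table holds read counts per gene for 4 libraries, made by the authors from spliced alignments to mm10 (HISAT2 and bcl2fastq 2.17, per the labels' processing notes) over UCSC known genes, with a gene length column. The labels name a stranded mRNA kit and the study's methods an unstranded one. From the counts, edgeR 4.0.16 (R 4.3.3) was run on the 2 WT and 2 KO libraries (filterByExpr, TMM, quasi-likelihood F-test with genotype as the only term, Benjamini-Hochberg over 13840 genes), after being tested on simulated data. CPM use TMM-scaled library sizes. Entrez identifiers were matched to symbols for 24570 of the 24594 rows. Positions come from RefSeq, and overlaps from GENCODE, on GRCm38.

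The members and lists were chosen with earlier results of these data known. Named genes were the members, Smarca1, Pou5f1, Sox2, Nanog, up to 5 called genes of largest change and the gene of highest mean CPM in each of 4 lists (other formative and primed, naive, paralogs, epithelial), and the called gene of largest change in each list of another cell type. Profile likeness was computed for the called member of largest change, over genes with more than 20 mean counts. Alternatives were RLE, upper-quartile and no scaling factors, a filter of at least 1 count or of CPM over 1 in 2 libraries, DESeq2 1.42.0, the edgeR 4 and robust fits, a replicate block, removal of chromosome medians and leaving out each library. The labels do not say whether libraries of a genotype came from separate cultures, so p-values measure only the spread between these libraries.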

Additional observations from a re-analysis of the deposited data

How the results depend on the processing

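Over all tested genes, the 1274 genes at an adjusted p under 0.05 became 737 with DESeq2 and 579 with chromosome medians removed, and 829 to 1932 when 1 library was left out. The 137 DEGs became 82 with DESeq2. Of the members, 5 passed the test, 3 with DESeq2 and 3 to 5 on leaving out a library. The members held no DEG, and 0 to 1 on leaving out a library, and their median log2 fold change then ranged from 0.0463 to 0.2177, the latter without WT replicate 2. The 8 other formative and primed genes became 5 to 14 when 1 library was left out (14 without KO replicate 1), and the 2 paralogs became 1 with chromosome medians removed and 1 to 3 when 1 library was left out. Of 125 alternative values for single members, 115 stayed on their side of the threshold, with changes of sign for the uncalled Fgf5 and Sox11 on leaving out a library, 9 lost the call (Foxd3 and Grhl2), 1 gained it, and none of the called genes reversed.

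Libraries share replicate numbers between genotypes, but same-numbered libraries' deviations correlated at only 0.196. With 2 pairs of libraries, this value does not establish a pairing. With the replicate block, which leaves 1 residual degree of freedom, 3471 genes and 223 DEGs were called, with 6 members (Sall2 at an adjusted p of 0.00451), 17 other formative and primed genes and 11 naive genes. Of all calls, 43.4% were higher in KO, 49.9% with upper-quartile scaling and 67.9% with chromosome medians removed. Depth limits Fgf5, which the CPM filter removed and DESeq2 gave no adjusted p.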
